A study of Mus musculus with 16 samples.

Results

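The positions described here are the autosomal CpG sites that carried a recorded signal in cells with wild-type Dnmt1, where no enzyme built to use the tracking cofactor was present. They were first sought as positions listed in 2 or more of the 5 wild-type libraries, and 78 of 22693 autosomal wild-type positions met that rule. Because this was below the 200 needed, the members are the positions with 5 or more reads in any wild-type library. There were 3436 of them, among 11571729 autosomal positions listed in the whole series. The working label called these positions recurring, and the data go against it: 24 of the 3436 were listed in a second wild-type library. The 78 positions that did recur are described beside them.

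All 16 libraries came from E14TG2a, a mouse embryonic stem cell line, after electroporation with 1 mM Ado-6-azide and isolation of genomic DNA 3 h later. The wild-type groups were WT, with 3 libraries, and a wild-type control of the state transition experiment, with 2. The knock-in groups carried the heterozygous Dnmt1 N1580A substitution, so that an unaltered Dnmt1 allele remained. They were the Het group, with 3 libraries, and a priming series with 2 libraries from each of days 0, 2, 4 and 8. Naive cells, taken as day 0, were kept in LIF with 2 kinase inhibitors. Priming was started by passaging into medium that lacked these inhibitors. The wild-type control carries the name 2i, for the 2 inhibitors, so among the days its medium corresponds to day 0. The labels do not say whether the knock-in line is a single clone or whether replicates were separate cultures. They also do not give the state in which the WT and Het triplicates grew. The p-values below therefore measure the spread between these libraries, which may be technical.

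DNMT1 is the maintenance methyltransferase, which copies CpG methylation onto the new strand after replication. It takes the transferred group from S-adenosylmethionine. The N1580A enzyme is engineered to accept an analog made from Ado-6-azide, which leaves an azide on the cytosine. That azide is joined to a biotinylated oligonucleotide, and enriched DNA is primed from it and sequenced. CpG-rich promoters of most genes in embryonic stem cells are unmethylated, and so offer few hemimethylated sites to DNMT1.

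Autosomal reads numbered 1609 to 22608 in the wild-type libraries and 4134592 to 24774977 in the knock-in libraries. Reads carried no molecular identifiers, so counts at 1 position can include PCR copies, and intervals and limits cover counting error only.

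Of the members on chromosomes with gene starts in the tables used, 61 lay in the RefSeq promoter windows, which run from 250 bases before to 50 after a gene start. In all 61 the deposited position fell on a CG of the RefSeq sequence. The 6 windows below are shown because they hold 2 members or the most wild-type reads. All but the last were at 0 reads in every knock-in library. That was usual in the windows, where any knock-in library listed 11.5% of the 61 members and 12.9% of all CpGs. Sequences are from RefSeq on GRCm38.p6, 5′ to 3′ along the gene, and capitals mark the member CpGs. The windows are Tsnaxip1 at chr8:105827494-105827793 (plus strand), Nudt8 at chr19:4000330-4000629 (plus), Ppp1r18 at chr17:35865878-35866177 (plus), B3gnt4 at chr5:123508232-123508531 (plus), Adam23 at chr1:63445641-63445940 (plus) and Zfp985 at chr4:147553027-147553326 (plus).
Tsnaxip1: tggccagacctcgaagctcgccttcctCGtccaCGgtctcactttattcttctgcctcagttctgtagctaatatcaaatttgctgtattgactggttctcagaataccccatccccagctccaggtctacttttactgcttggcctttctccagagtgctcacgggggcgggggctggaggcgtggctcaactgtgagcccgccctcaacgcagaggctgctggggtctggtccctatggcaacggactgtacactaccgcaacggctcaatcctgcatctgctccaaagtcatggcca
Nudt8: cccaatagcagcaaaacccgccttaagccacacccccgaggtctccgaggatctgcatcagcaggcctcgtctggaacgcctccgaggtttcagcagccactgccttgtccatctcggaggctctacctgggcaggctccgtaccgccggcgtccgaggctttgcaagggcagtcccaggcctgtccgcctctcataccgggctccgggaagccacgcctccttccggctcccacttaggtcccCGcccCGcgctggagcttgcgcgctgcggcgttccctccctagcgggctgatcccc
Ppp1r18: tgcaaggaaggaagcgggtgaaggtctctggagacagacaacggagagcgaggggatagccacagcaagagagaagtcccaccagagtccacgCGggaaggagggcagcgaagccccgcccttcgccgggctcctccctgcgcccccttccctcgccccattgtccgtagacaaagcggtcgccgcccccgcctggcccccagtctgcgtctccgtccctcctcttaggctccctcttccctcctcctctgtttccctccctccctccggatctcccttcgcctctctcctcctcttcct
B3gnt4: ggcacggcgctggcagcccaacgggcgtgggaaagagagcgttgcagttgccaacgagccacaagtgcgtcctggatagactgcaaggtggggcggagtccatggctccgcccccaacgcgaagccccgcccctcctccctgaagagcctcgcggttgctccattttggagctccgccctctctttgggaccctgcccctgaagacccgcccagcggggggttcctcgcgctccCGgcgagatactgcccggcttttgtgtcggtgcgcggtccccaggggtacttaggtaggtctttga
Adam23: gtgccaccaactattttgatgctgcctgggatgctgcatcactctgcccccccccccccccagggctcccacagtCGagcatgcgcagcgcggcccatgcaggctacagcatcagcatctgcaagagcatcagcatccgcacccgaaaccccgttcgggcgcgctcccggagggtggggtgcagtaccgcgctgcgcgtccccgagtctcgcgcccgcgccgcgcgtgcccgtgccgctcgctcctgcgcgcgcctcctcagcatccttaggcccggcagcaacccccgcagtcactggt
Zfp985: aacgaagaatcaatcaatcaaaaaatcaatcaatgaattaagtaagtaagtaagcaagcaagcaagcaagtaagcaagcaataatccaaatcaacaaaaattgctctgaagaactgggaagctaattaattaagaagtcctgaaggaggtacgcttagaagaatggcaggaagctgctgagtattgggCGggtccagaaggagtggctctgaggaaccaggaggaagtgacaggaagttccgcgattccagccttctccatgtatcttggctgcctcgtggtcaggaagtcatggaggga

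Tsnaxip1, named for an interaction with translin-associated factor X, held 2 members, 1 of them with 8 reads in WT replicate 3. Nudt8, a nudix hydrolase gene, also held 2, of which the CpG 6 bases before the start had 5 reads in WT replicate 3. Wild-type control replicate 1 gave 21 reads at the Ppp1r18 member, 16 at the B3gnt4 member and 13 at the Adam23 member. Ppp1r18 encodes a regulatory subunit of protein phosphatase 1, B3gnt4 a glycosyltransferase and Adam23 a membrane protein of the disintegrin family. The zinc finger gene Zfp985 had 13 reads in WT replicate 3, and it was the exception among these 6, with 3 reads in Day 2 replicate 2 and 7 in Day 8 replicate 2. The sequences differ in CpG content, with 31 CpGs in the Adam23 window and 6 in that of Zfp985. Over the 69 windows that held a member the median was 21 CpGs, against 7 over all 31396 windows. Of the 69, 55.1% had 20 or more CpGs, against 27.0% of all windows. A window with more CpGs offers more sites where a member can lie, so these values do not measure a preference for CpG-rich windows. No comparison weighted by CpG number was made. Windows of neighbouring starts overlap, so a member can count for more than 1.

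Members lay near gene starts more often than deeply read knock-in positions did. Of the 3326 members outside chromosome 18, where no gene starts were used, 241 (7.25%) lay within 1 kb of a start. By library the share of positions with 5 or more reads within 1 kb of a start was 7.53%, 0% and 7.05% in the WT libraries and 6.72% and 9.32% in the wild-type controls. It lay between 2.20% and 2.75% in all 11 knock-in libraries. The zero belongs to WT replicate 2, which had 22 such positions, and its exact 95% interval reached 15.4%. The means were 6.12% ± 3.57 in wild-type libraries (SD, n = 5) and 2.54% ± 0.188 in knock-in libraries (SD, n = 11), a ratio of 2.41. The difference of 3.58 percentage points passed a two-sided exact permutation test (Benjamini-Hochberg adjusted p = 0.00321 over 7 tests of location and listing). Within the state transition experiment the 2 wild-type controls lay above all 8 day libraries, at 8.02% ± 1.83 and 2.48% ± 0.187. The exact permutation p was 0.0222, the smallest possible. Of the day libraries, only those of day 0 were kept in the inhibitors named by the control label. Within the Het experiment the 3 WT libraries, at 4.86% ± 4.22, did not separate from the 3 Het libraries, at 2.70% ± 0.0395 (exact permutation p = 0.4, where 0.1 is the smallest possible).

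The promoter windows themselves showed the same order. They held 1.69% ± 1.079 of the positions with 5 or more reads in the wild-type libraries and 0.382% ± 0.0250 in the knock-in libraries (SD, n = 5 and n = 11). The ratio was 4.41 (exact permutation adjusted p = 0.00321). Without WT replicate 2 the differences were 5.11 points for starts and 1.72 points for windows. Among the 18666 wild-type positions with under 5 reads, 8.28% lay within 1 kb of a start, so the pattern was not limited to the members.

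**Figure D1:**
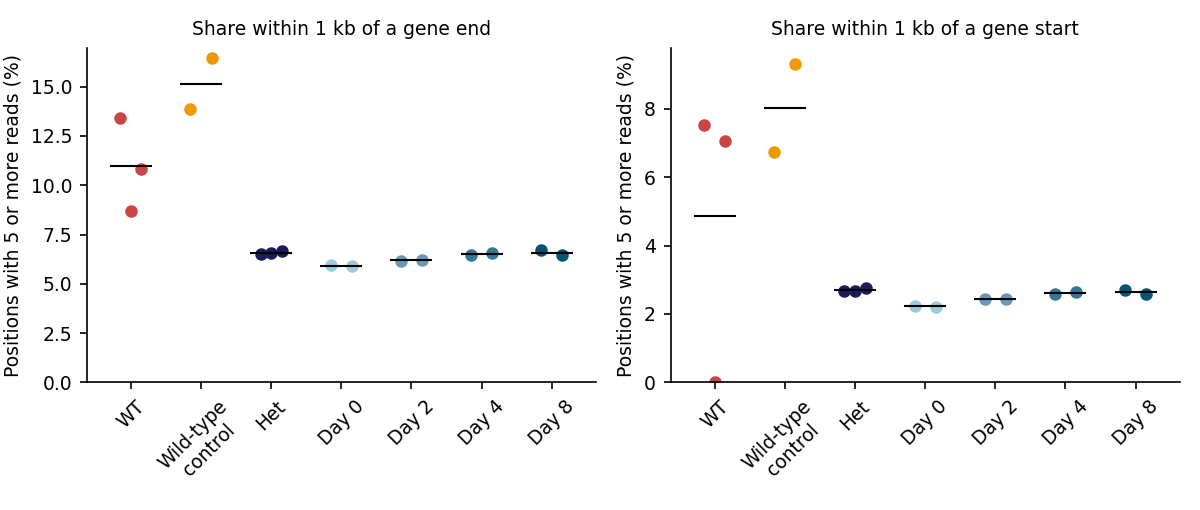
Share of positions with 5 or more reads, in percent, within 1 kb of either annotated gene end (left) and within 1 kb of a gene start (right, without chromosome 18), for each library as a point and each group's mean as a line. The 5 wild-type libraries lie above all 11 knock-in libraries on the left, and 4 of the 5 do so on the right.

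Around starts the members peaked in the 300-base bins on either side of the start, which held 1.80% of members after it and 1.56% before it. Wild-type positions with under 5 reads had 2.16% and 1.70% in the same bins. Deeply read Het positions had 0.45% and 0.38% there, day 0 positions 0.38% and 0.31%, and day 8 positions 0.43% and 0.37%. The bin that begins 2700 bases after the start held 0.51% of members and 0.45% of Het positions.

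**Figure D2:**
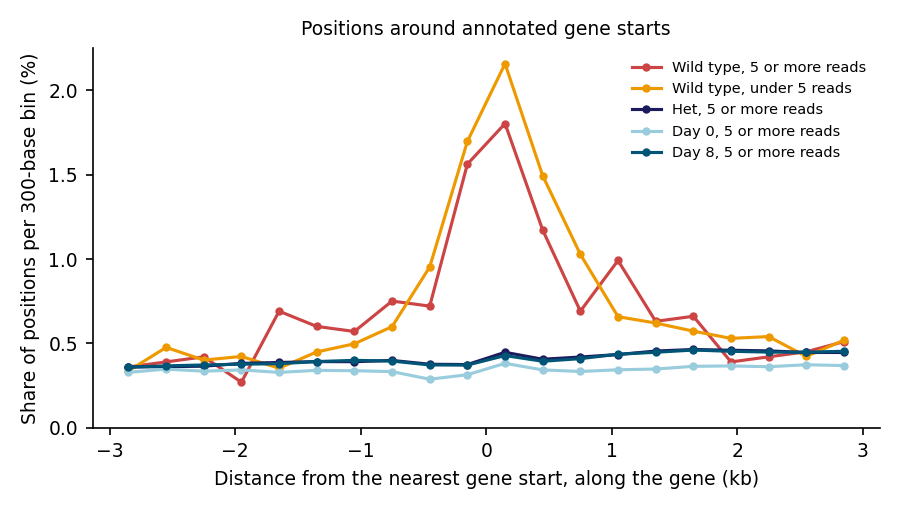
Share of positions, in percent per 300-base bin, against the distance from the nearest gene start along the gene, in kb. Members and wild-type positions with under 5 reads peak in the bin after the start, at 1.80% and 2.16%, while the Het, day 0 and day 8 curves stay under 0.5%.

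Gene ends of either kind, which include gene starts, also held a higher share in the wild type. Ends other than starts were not tested alone. Within 1 kb of an annotated end lay 13.4%, 8.70% and 10.8% of positions with 5 or more reads in the WT libraries and 13.9% and 16.4% in the wild-type controls. Knock-in libraries had 5.88% to 6.70%, so the groups did not overlap. The mean difference was 6.26 percentage points (12.6% ± 2.98 and 6.38% ± 0.284, SD, exact permutation adjusted p = 0.000801). Shares outside genes were lower in the wild-type libraries, at 36.4% ± 3.55, than in the knock-in libraries, at 40.6% ± 0.696 (exact permutation adjusted p = 0.000801). With a minimum of 3 reads the difference was -1.8 points, and its exact permutation adjusted p was 0.058. Protein-coding bodies held 52.8% ± 5.33 and 52.0% ± 0.785 (exact permutation adjusted p = 0.631). Leaving out WT replicate 2, where 23 positions had 5 or more reads, made the body share 3.15 points higher in the wild type, with an exact permutation adjusted p of 0.000977.

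Most members were seen in few knock-in libraries. The 11 knock-in libraries took no part in choosing them, and 1067 members (31.1%) were listed in none. A further 964 were in 1, 757 in 2 and 598 in 3 to 5, while 50 were in 6 or more and 5 in all 11. Wild-type positions with under 5 reads were unlisted in 33.0% of cases. The rule's own threshold made little difference: the 1170 positions whose highest wild-type count was 5 reads were in 1.37 knock-in libraries on average, as were the 1764 whose highest count was 4. Across the 3436 members the Spearman correlation of wild-type reads with the number of knock-in libraries was 0.04, a description only, since the points share libraries.

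**Figure D3:**
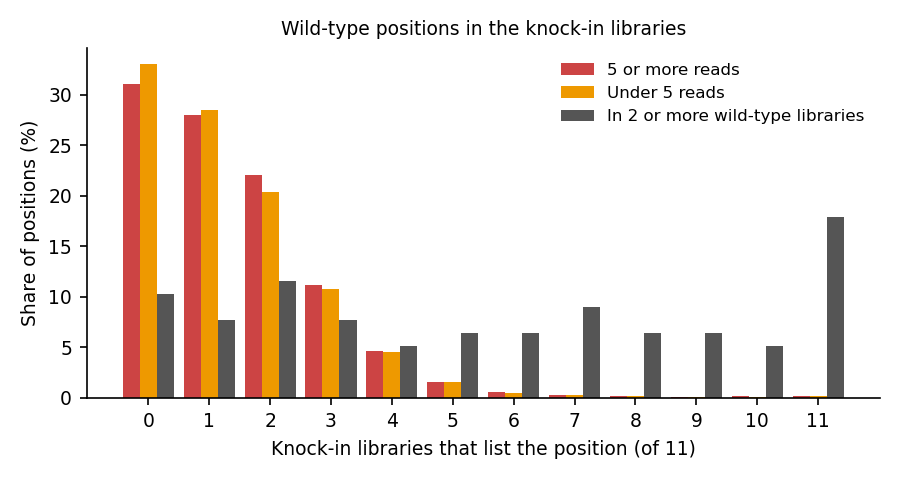
Share of positions, in percent, by the number of knock-in libraries that list them, for members, for wild-type positions with under 5 reads and for positions in 2 or more wild-type libraries. Members and positions with under 5 reads have their tallest bars at 0 libraries, 31.1% and 33.0%, and positions in 2 or more wild-type libraries at 11, with 17.9%.

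The share of members listed ranged from 2.74% in Day 0 replicate 2 to 22.2% in Het replicate 2. By group it averaged 17.4% ± 5.15 in the Het libraries (SD, n = 3). In the priming series the means of 2 libraries were 2.79% for day 0, 8.43% for day 2, 15.3% for day 4 and 18.96% for day 8. These shares moved with the number of positions each library listed, from 383292 to 3362003. Members were listed more often than positions with under 5 reads by 0.59 percentage points ± 0.703 (SD, 8 of 11 libraries, exact sign-flip permutation adjusted p = 0.0205 over 6 tests). Without wild-type control replicate 1 the difference was 0.30 points (exact permutation adjusted p = 0.289), without wild-type control replicate 2 it was 0.50 points (adjusted p = 0.0566), and without the positions that recur it was 0.33 points (adjusted p = 0.166).

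Set against positions with 5 or more reads in other knock-in libraries, members were listed less often. On average 13.02% of members were listed, against 14.7% of those positions, a difference of -1.71 points ± 1.04 (SD) that was negative in 11 of 11 libraries. The exact sign-flip permutation test gave an adjusted p of 0.00171. Beyond 1 kb of every gene start the difference was -1.13 points ± 0.761, again negative in 11 of 11 libraries (exact permutation p = 0.000977).

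Members near a gene start were listed in knock-in libraries less often than other members. Of the 241 members within 1 kb of a start, 168 (69.7%) were in no knock-in library, against 861 of 3085 (27.9%) elsewhere. Per library 5.09% ± 2.88 of the members near a start were listed, and 13.6% ± 7.05 of the rest (SD, n = 11). The difference of -8.53 points was negative in 11 of 11 libraries (exact sign-flip permutation adjusted p = 0.00171). Wild-type positions with under 5 reads behaved alike in the counts, with 74.8% of 1545 near a start and 29.2% of 17121 elsewhere in no knock-in library. In the promoter windows any knock-in library listed 7 of the 61 members (11.5%), beside 12.9% of all 349578 CpGs in the windows, so a member CpG was near the level of any window CpG.

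**Figure D4:**
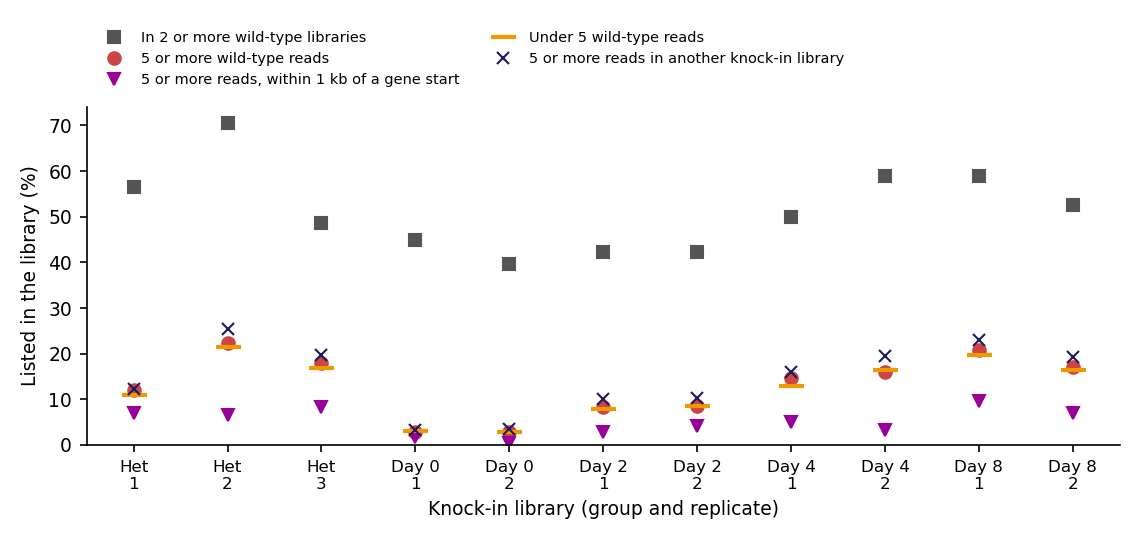
Share of positions listed in each of the 11 knock-in libraries, in percent, for positions in 2 or more wild-type libraries, members, members within 1 kb of a gene start, wild-type positions with under 5 reads and positions with 5 or more reads in another knock-in library. Members within 1 kb of a start lie lowest in all 11 libraries, and positions in 2 or more wild-type libraries lie highest, between 39.7% and 70.5%.

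Where a member was listed, its depth in knock-in libraries averaged 10.4 reads ± 3.81, against 7.58 ± 2.90 at all other autosomal positions and 11.1 ± 4.61 at wild-type positions with under 5 reads (SD over 11 libraries). Against all other positions the log2 ratio was 0.46 ± 0.0877, positive in 11 of 11 libraries (exact permutation adjusted p = 0.00146). Without the positions that recur it was 0.14 (exact permutation adjusted p = 0.0308), and with 10 or more wild-type reads it was 0.18 (adjusted p = 0.0596). Against positions with under 5 reads the log2 ratio was -0.07 (exact permutation adjusted p = 0.0117). It changed sign with 3 or more reads (0.16), near gene ends (0.22) and with medians (0.04). It also did so without chromosome 2, which holds 7.89% of members, the largest share of any chromosome. No order between those classes is therefore given.

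Wild-type depth itself chose the members, so it is given as a description. The libraries contributed 500, 23 and 1591 members in the WT group and 952 and 377 in the wild-type control. Members took 32.1%, 7.83% and 58.9% of autosomal reads in the WT libraries, and 44.5% and 28.6% in the controls. Their median depth was 5 to 7 reads in each library. Wild-type control replicate 1 stood apart, with 8 positions of 100 or more reads that held 10.2% of its reads. The highest 2 were chromosome 6 at 51617404, outside genes, with 471 reads, and chromosome 5 at 108433754, with 425 reads. All 8 had 0 reads in the other 4 wild-type libraries.

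The position with 425 reads lies in Atp5k, a gene for a small subunit of ATP synthase, 645 bases from a start, and it was listed in no knock-in library. A position with 267 reads in Mad1l1, a spindle checkpoint gene, was also in none. By contrast the position with 350 reads in the nuclear pore gene Nup210 had 7 reads in Het replicate 1, 3 in Day 2 replicate 2, 3 in Day 4 replicate 1 and 4 in Day 8 replicate 1. The position with 471 reads was listed in 3 knock-in libraries, with 23 reads in all. Wild-type depth did not order these positions by knock-in depth.

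Recurrence between wild-type libraries was rare. Any pair of them shared 4 to 22 positions, 0.0443% to 0.952% of either library. Of the 78 recurring positions, 63 were in 2 libraries, 10 in 3, 4 in 4 and 1 in all 5. That position lies in Ctnna1, the gene for alpha-catenin, on chromosome 18 at 35246779. It had 3, 2 and 12 reads in the WT libraries and 1 and 4 in the wild-type controls. In the knock-in cells it had 26, 9 and 0 reads in the Het libraries, 16 and 4 on day 0, 0 and 10 on day 2, 23 and 14 on day 4, and 8 and 12 on day 8. It thus appeared in 9 of 11 knock-in libraries, which held far more reads than the wild-type ones. Its wild-type listing chose it, so the depths are not compared.

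Recurring positions were listed in 51.4% ± 9.27 of cases per knock-in library, against 12.4% ± 6.41 for positions found in a single wild-type library (SD, n = 11). The difference was 39.0 points ± 5.28, positive in 11 of 11 libraries, and their reads per listed position were higher by 3.06 ± 0.54 on the log2 scale (both adjusted p = 0.00146, exact sign-flip permutation). Chromosomes 2 and 17 held 20 and 16 of the 78 positions. Without these chromosomes the 42 others were still listed more often by 27.8 points ± 6.20, and the log2 ratio of reads was 1.43.

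A position in Sirt2, a NAD-dependent deacetylase gene, and in the overlapping lncRNA Gm19897 (chromosome 7 at 28775627) had 8, 0 and 11 reads in the WT libraries and 4 and 11 in the controls. It was in all 11 knock-in libraries with 4 to 33 reads. Of the 78 recurring positions, 8 (10.3%) were in no knock-in library, against 32.8% of positions found in a single wild-type library. These 8 lay in or near Fsip1, Jrkl, Rab5b and Pmel, Ppp2r5c, Gatad2a, Pard6g, Osbpl10 and Gm4665, and Tgfb2, with 2 to 7 wild-type reads. Pmel, which forms melanosome fibrils, and Jrkl had theirs at 360 and 576 bases from a gene start.

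Clusters of recurring positions stood out by depth. On chromosome 2 between 98662827 and 98667325, outside annotated genes, 8 recurring positions were each listed in all 11 knock-in libraries. They held 78.7% of all knock-in reads at recurring positions. As reads per 1000000 autosomal reads (RPM) these 8 sites had 744, 622 and 1128 in the WT libraries and 44.2 and 372 in the controls. Knock-in cells had 175, 138 and 114 in the Het libraries, 420 and 424 on day 0, 228.1 and 226.1 on day 2, 166 and 167 on day 4, and 228 and 265 on day 8. The wild-type values rest on 1 to 22 reads each. Repeats were not annotated, so whether the reads at these sites come from this single place was not tested. Listing in wild-type libraries chose these sites, so their wild-type and knock-in RPM are not compared.

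On chromosome 17 between 39843253 and 39847676, 12 recurring positions lay around Rn18s-rs5, an 18S ribosomal RNA-related pseudogene, and the lncRNA AY036118. They had 21, 0 and 25 reads in the WT libraries and 17 and 6 in the controls. In RPM that was 2233, 0 and 1282, and 752 and 745. Here too the wild-type listing chose the sites, so these values are not compared with those of the knock-in cells. The knock-in libraries had 15.1, 21.9 and 22.2 in the Het group, 4.11 and 4.80 on day 0, 2.12 and 3.19 on day 2, 4.06 and 8.15 on day 4, and 23.6 and 15.5 on day 8. This stretch also held the largest cluster of members, 23 joined by gaps of up to 10 kb. Ribosomal DNA is present in many near-identical copies, so the place of origin of these reads is uncertain.

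Over the days of priming, reads at members showed no trend that passed the test. They came to 370 and 315 RPM on day 0, 298 and 316 on day 2, 323 and 282 on day 4, and 359 and 342 on day 8. Pearson's r with the day was 0.22 and Spearman's rho 0.15 (exact permutation adjusted p = 0.591 and 0.761 over 4 trends, n = 8). Without both day 8 libraries r was -0.60. Without the positions that recur, r over all 8 was 0.85 (exact permutation adjusted p = 0.0159), so the positions that recur change this call. In the Het libraries members had 328, 335 and 317 RPM. The difference from the 8 day libraries was 0.01 on the log2 scale (exact permutation adjusted p = 0.897).

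Reads at recurring positions came to 517 and 494 RPM on day 0, 266 and 259 on day 2, 213 and 206 on day 4, and 290 and 321 on day 8, so that both day 0 libraries were highest. Over all 8 libraries the trend did not pass (r = -0.52, rho = -0.39, exact permutation adjusted p = 0.340 and 0.722). Without both day 8 libraries, which lay above days 2 and 4, r was -0.94 and rho -0.96 over 6 libraries (exact permutation p = 0.0222 for each, unadjusted). Of the RPM on day 0, the chromosome 2 cluster alone gave 420 and 424. Without chromosome 2, r over all 8 libraries was -0.24 (exact permutation adjusted p = 0.754). Per 1000000 positions listed, recurring ones numbered 91.3 and 77.5 on day 0, 26.5 and 25.7 on day 2, 18.96 and 18.2 on day 4, and 15.3 and 16.04 on day 8. Spearman's rho was -0.98 (exact permutation adjusted p = 0.00317) and r was -0.76 (adjusted p = 0.144). Without day 8 r was -0.91 over 6 libraries (exact permutation p = 0.0222, unadjusted). The number of recurring positions listed, 35 and 31 on day 0 and 46 and 41 on day 8, changed far less than the total of listed positions, which was lowest on day 0. The Het libraries had 222, 194 and 168 RPM at recurring positions, a log2 difference of -0.65 from the day libraries (exact permutation adjusted p = 0.121). Without chromosome 2 it was 0.11 (exact permutation adjusted p = 0.752), and without chromosomes 2 and 17 it was -0.41 (exact permutation adjusted p = 0.279), so no direction is given.

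**Figure D5:**
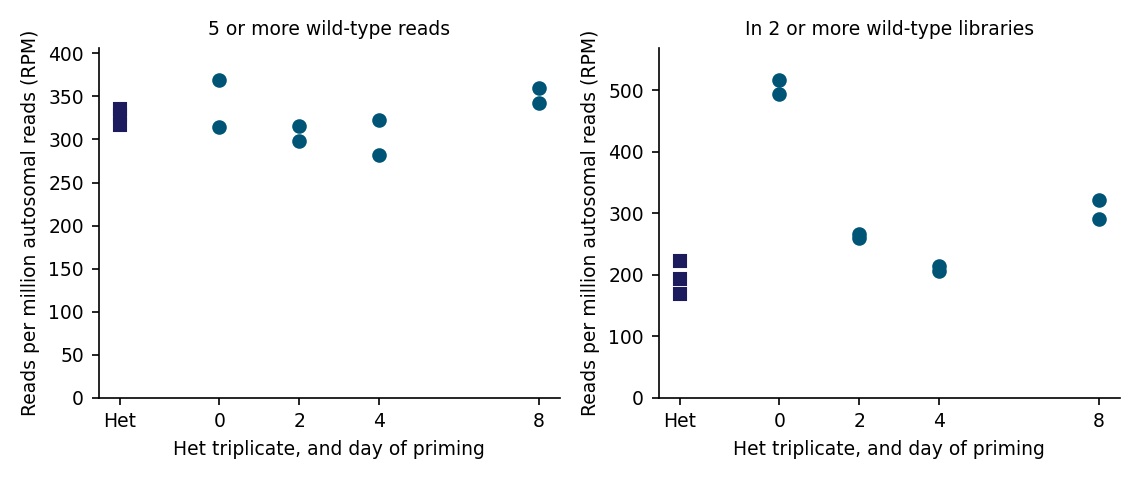
RPM at members (left) and at positions in 2 or more wild-type libraries (right), for the Het triplicate and for days 0, 2, 4 and 8 of priming, 1 point per library. Members stay between 282 and 370, and the recurring positions are highest on day 0, at 517 and 494.

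In all, 1750 of 20665 autosomal protein-coding genes (8.47%) and 407 of 12408 lncRNA genes (3.28%) held a member in the body or within 1 kb of an end. Most of these 2157 genes, 1876, held a single member, 228 held 2 and 53 held 3 or more. The counts followed gene length: 20.6% of the 5167 longest protein-coding genes held a member, against 1.86% of the 5166 shortest. Per megabase the order was opposite, with 1.73 and 7.50 members. Rates here and below use the gene's length without the 1 kb beyond its ends, where members could also count, so rates of short genes may be raised.

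Gse1, which encodes a coiled-coil protein, and Cdh13, the gene for T-cadherin, held 6 members each, with 52 and 36 wild-type reads. Of each 6, 1 was in no knock-in library. Rbms3, an RNA-binding protein gene, held 5 members with 30 reads. The 10 genes with 4 were Zfhx3, Mtus2, Btbd9, Camta1, Wwox, Atp7b, Rnf165 and 3 overlapping annotations of the clustered protocadherin region on chromosome 18, Gm37013, Gm38666 and Gm38667, which share their members. Zfhx3 and Camta1 encode transcription factors, Wwox an oxidoreductase and Atp7b a copper transporter. The copper transporter gene is 67292 bases long, so its 4 members came to 5.94 per 100 kb, against 0.51 in Cdh13. Among genes with 3 members were Nfasc and Ank2, for neurofascin and ankyrin-B, Itgb4, an integrin subunit, and Ksr2, a kinase suppressor of Ras. None of the 3 members of Clmn was in a knock-in library, and 2 of the 3 in Nacc2 were in none. Over all members 31.1% were in none, so such counts in single genes are not read as a trait of the gene.

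Set beside the 8.47% of all protein-coding genes, a member lay in 0 of 26 housekeeping and ribosomal protein genes, whose median length was 4.00 kb. It lay in 14 of 27 long cell adhesion genes, with a median length of 1230 kb and 0.69 members per megabase, against 2.08 over all protein-coding genes. Of 20 naive pluripotency genes 2 held a member, Esrrb, a transcription factor of the naive network, and Pecam1. Of 15 formative and primed genes Foxp1 alone did. Of 19 DNA methylation genes the 2 were Tet2, which oxidises methylcytosine, and Kdm2b, which binds unmethylated CpGs. The imprinted list had 6 of 47, among them Trappc9 and Airn with 2 members each, and Gnas with 1. Airn is the paternal lncRNA that silences Igf2r. Germline genes with methylated promoters had 3 of 22, Piwil2, Dpep3 and Tdrd6. The Hox and Polycomb list had 4 of 30, among them Gata6, Gata4 and Lhx2, and zinc finger repressors had 4 of 23, among them Zfp536. Of 5 annotated genes on the ribosomal RNA and repeat-copy list, Hjurp held a member. Most of these lists are short, and a count differs from the background by a few genes.

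Along the chromosomes members followed the knock-in positions with few departures. Chromosome 17 held 5.27% of members and 4.20% of all knock-in positions, chromosome 19 held 3.49% and 2.81%, and chromosome 3 held 4.05% and 5.66%. Their median spacing was 346 kb, and 116 neighbouring pairs lay within 10 kb. Within 100 bases of a member the knock-in libraries together listed a median of 1 other position, and 26.1% of members had none. Members were near the general level. Wild-type positions with under 5 reads and all knock-in positions also had a median of 1, and 27.2% and 26.5% of them had none.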

How the data were processed

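Genomic DNA of 16 libraries was analysed. The authors deposited a count of reads per listed CpG position, without normalization, per the file headers. The submitters' processing notes name cutadapt 4.4, BWA 0.7.17-r1188, SAMtools 1.12 and build mm10. Parameters, strand and duplicate handling are not given there. Unlisted positions were taken as 0 reads. Members and gene lists were chosen with earlier results of these data known. Tests had been planned for recurring positions. Since fewer than 200 recurred, they were also run on positions of 5 or more reads, and tests of location were added after the data were seen. Planned sequences required recurring positions in promoter windows, and there were none, so windows with most members, then most wild-type reads, are shown. Genes were named by number of members, then wild-type reads. Library summaries, not features, were compared, by exact permutation over libraries with Benjamini-Hochberg adjustment at 0.05, without a count model, in Python 3.11.15 (scipy 1.17.1, numpy 2.4.6, pandas 2.3.3). The tests were checked on simulated data. RefSeq coordinates of GRCm38.p6 equal those of mm10. No gene start on chromosome 18 and no exon, intron, repeat or CpG island annotation was used. Alternatives covered read minimum, distance, merging, thinning, gene ends, chromosomes and each library left out.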

Additional observations from a re-analysis of the deposited data

Results flagged for a closer look

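The sex chromosomes lay outside the autosomal rule, and 38 positions there had 5 or more reads in a wild-type library. WT replicates 1, 2 and 3 had 7, 0 and 17 of them, and wild-type control replicates 1 and 2 had 12 and 2. They entered no comparison.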

How the results depend on the processing

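Under the alternatives of processing and with each library left out, the recurring against single differences kept direction and call. So did the shares near gene starts, gene ends and promoter windows. The listing of members near a start or against other knock-in libraries also did. Split by experiment, the gene-start share did not pass in the Het experiment (exact permutation p = 0.4). The gene-end share there had an exact permutation p of 0.1, the smallest possible. The depth limits the location tests, since WT replicate 2 had 23 positions of 5 or more reads, so shares at 10 or more reads were not run. The causes of the changes below were not tested.

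With 10 or more reads the listed share, members over under 5, was 1.34 points and the log2 depth ratio to all other positions 0.18, both no longer past the threshold, and the day trend of reads turned to -0.19. With 3 or more reads the depth ratio to under 5 turned to 0.16, the day trend of reads to -0.11, the Het difference to -0.0532, and the share outside genes, -1.8 points, missed the threshold. Merging within 100 bases turned the day trend of positions to 0.68. Near gene ends the depth ratio to under 5 was 0.22 and the recurring day trend of reads 0.067. Beyond them the listed share was 0.45 points, past no threshold, and the day trend of positions 0.0218. Medians gave a depth ratio of 0.0404. Without the chromosome with most members that ratio was 0.00123, the day trend of positions 0.13 and the recurring Het difference 0.11. Without positions that recur the listed share was 0.33 points, the day trend of reads 0.85, now past the threshold, and that of positions 0.57. With all positions the body share was 2.36 points higher, past the threshold.

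Leaving out each library in turn gave these ranges. The listed share of members over under 5 ran between 0.301 and 0.833 points and over other knock-in libraries between -1.91 and -1.43, near starts over elsewhere between -9.27 and -7.71, and recurring over single between 38.0 and 45.4. Log2 depth ratios of members ran between 0.24 and 0.54 (all other) and between -0.336 and -0.0408 (under 5), and of recurring positions between 2.19 and 3.71 (all other) and between 1.68 and 3.37 (single). Day correlations ran between -0.14 and 0.71 (member reads), -0.518 and 0.0925 (member positions), -0.63 and -0.33 (recurring reads), and -0.81 and -0.69 (recurring positions, past the threshold without either day 0 library). Het differences ran between -0.0545 and 0.164 for members and -0.78 and -0.48 for recurring positions. Location differences ran between 5.31 and 7.25 points (gene ends), 2.78 and 5.11 (starts), 1.04 and 1.72 (windows), -0.13 and 3.15 (bodies) and -4.98 and -2.72 (outside genes).

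Replicate numbers gave no visible pairing of the day libraries, which does not tell whether any of them shared a culture. Deviations from the day mean in 2413 bins of 1 Mb correlated between -0.14 and 0.04 over 6 pairs of days. With the replicate block the day correlations were 0.24, -0.35, -0.52 and -0.76 for member reads, member positions, recurring reads and recurring positions, and no call changed.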
